A study of Mus musculus with 36 samples.

Results

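A set of 10 genes was followed that make or move the transmitters of dopamine, noradrenaline, serotonin and acetylcholine neurons. They are Th, Ddc, Slc18a2, Slc6a3, Dbh, Slc6a2, Tph2, Slc6a4, Chat and Slc5a7, chosen by name for their function, and all 10 were found among the 55450 gene rows of 1 month, the 53379 of 2 months and the 54146 of 3 months. The libraries came from forebrain/midbrain (F/M) and cerebellum (Cb) of 1-, 2- and 3-month-old mice in which Tpp1, the lysosomal protease gene of CLN2 disease, was disrupted by gene targeting, and from unaffected siblings of the same age. There were 3 mice per group, 12 groups and 36 libraries. The Tpp1-/- mice were homozygous, the line was kept by crossing heterozygotes, and every control was wild type except replicate 3 of 1 month, which was Tpp1+/- in both regions. At 1 month replicate 1 was female and the other mice were male, at 2 months all mice were male, and at 3 months replicate 3 was female; the strain and any treatment were not given in the labels. The comparisons ask whether the loss of Tpp1 changed the message level of these genes in each region and at each age.

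Dopamine, noradrenaline and serotonin neurons sit in small nuclei of the midbrain and hindbrain and send long axons through the whole brain, so their messenger RNA stays mostly in the nuclei while their transmitter acts elsewhere. Th makes L-DOPA from tyrosine in dopamine and noradrenaline neurons, Ddc turns L-DOPA into dopamine and 5-hydroxytryptophan into serotonin, and Slc18a2 loads all monoamines into vesicles. Slc6a3 takes dopamine back up. Dbh makes noradrenaline from dopamine and Slc6a2 takes noradrenaline back up, both in cells such as those of the locus coeruleus beside the fourth ventricle. Tph2 starts serotonin synthesis and Slc6a4 takes serotonin back up, both in the raphe nuclei. Chat makes acetylcholine and Slc5a7 takes up the choline for it, in motor neurons, basal forebrain neurons and striatal interneurons. Th is also known in some cerebellar Purkinje cells, which are not dopamine neurons.

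The promoters of 7 of the genes are shown because Th with Slc18a2, Tph2 with Slc6a4, and Chat with Slc5a7 moved together across libraries of at least 1 region, and Dbh moved with Th in Cb. Each runs from 250 bases before to 50 bases after the RefSeq start site, 5′ to 3′ on the strand of the gene (GRCm38.p6). Such a window was found for 9 of the 10 genes. Of 5 motifs searched on both strands, the capitals mark TGACGTCA (the cyclic AMP response element), TATAAA (the TATA box) and GATAA (the core bound by GATA factors).
Th, chr7:142899946-142900245, minus strand: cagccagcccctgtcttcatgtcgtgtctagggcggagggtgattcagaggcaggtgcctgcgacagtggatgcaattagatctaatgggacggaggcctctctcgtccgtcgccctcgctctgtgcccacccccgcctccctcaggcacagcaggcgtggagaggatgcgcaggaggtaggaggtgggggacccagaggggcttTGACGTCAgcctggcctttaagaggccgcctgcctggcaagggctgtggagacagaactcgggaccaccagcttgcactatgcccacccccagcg
Slc18a2, chr19:59260628-59260927, plus strand: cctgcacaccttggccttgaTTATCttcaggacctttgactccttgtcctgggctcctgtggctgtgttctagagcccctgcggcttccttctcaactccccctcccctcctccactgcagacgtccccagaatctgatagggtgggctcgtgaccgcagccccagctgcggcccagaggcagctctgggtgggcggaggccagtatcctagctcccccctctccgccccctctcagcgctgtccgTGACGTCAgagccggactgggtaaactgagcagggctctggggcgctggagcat
Tph2, chr10:115184973-115185272, minus strand: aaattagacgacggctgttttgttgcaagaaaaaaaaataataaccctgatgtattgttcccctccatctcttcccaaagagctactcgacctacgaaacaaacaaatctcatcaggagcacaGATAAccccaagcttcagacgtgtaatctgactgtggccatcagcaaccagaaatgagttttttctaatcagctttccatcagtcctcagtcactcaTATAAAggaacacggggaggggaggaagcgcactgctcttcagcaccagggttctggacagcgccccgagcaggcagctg
Slc6a4, chr11:76998347-76998646, plus strand: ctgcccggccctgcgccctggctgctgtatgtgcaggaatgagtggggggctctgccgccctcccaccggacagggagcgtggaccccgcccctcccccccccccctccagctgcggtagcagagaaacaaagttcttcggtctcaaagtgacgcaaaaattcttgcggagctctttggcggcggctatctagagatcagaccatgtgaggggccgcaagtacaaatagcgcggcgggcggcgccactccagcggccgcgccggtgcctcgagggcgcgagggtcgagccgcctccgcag
Dbh, chr2:27165257-27165556, plus strand: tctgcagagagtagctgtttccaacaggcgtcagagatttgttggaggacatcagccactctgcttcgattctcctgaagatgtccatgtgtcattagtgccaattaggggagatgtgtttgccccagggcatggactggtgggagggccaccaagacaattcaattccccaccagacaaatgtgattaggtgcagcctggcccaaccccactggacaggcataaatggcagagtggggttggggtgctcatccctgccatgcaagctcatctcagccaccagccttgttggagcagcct
Chat, chr14:32465860-32466159, minus strand: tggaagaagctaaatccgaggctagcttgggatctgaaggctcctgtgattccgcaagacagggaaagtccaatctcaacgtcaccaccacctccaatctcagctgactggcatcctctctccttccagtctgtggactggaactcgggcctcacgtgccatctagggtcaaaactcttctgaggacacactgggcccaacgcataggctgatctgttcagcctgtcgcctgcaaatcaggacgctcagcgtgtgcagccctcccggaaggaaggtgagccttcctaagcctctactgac
Slc5a7, chr17:54298985-54299284, minus strand: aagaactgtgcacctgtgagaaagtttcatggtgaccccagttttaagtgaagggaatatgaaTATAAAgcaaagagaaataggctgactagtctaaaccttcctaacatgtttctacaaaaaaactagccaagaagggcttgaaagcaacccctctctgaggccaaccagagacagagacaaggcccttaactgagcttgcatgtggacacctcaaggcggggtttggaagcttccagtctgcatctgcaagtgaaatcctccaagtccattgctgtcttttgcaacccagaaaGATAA
TGACGTCA was found in the windows of Th, 45 bases before the start, and of Slc18a2, where it began 4 bases before the start. It stood in 1.79% of 32851 promoters of the same length. TATAAA was found in Tph2, 30 bases before the start, in Slc5a7, 187 bases before it, and in Ddc, and in 13.6% of all promoters. GATAA was found in Slc6a3, Slc18a2, Tph2 and Slc5a7 and in 25.4% of all promoters, and AAAGGTCA, the element of NR4A factors, in Ddc alone and in 1.51% of all. TAATTA, the homeodomain core, was in none of the 9 genes and in 5.29% of all promoters. The windows of Dbh, Slc6a4 and Chat held none of the 5 motifs. In Ddc the letters of TATAAA and AAAGGTCA, both on the other strand, overlap. These are matches of letters only. Th and Slc18a2 held TGACGTCA in common, and Tph2 with Slc6a4 and Chat with Slc5a7 held none of the 5 motifs in common.

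On GRCm38, Th lies on chromosome 7 (142892752 to 142931128), Ddc on 11 (11814101 to 11898144), Slc6a3 on 13 (73536747 to 73578672), Tph2 on 10 (115078641 to 115185022) and Slc6a4 on 11 (76998603 to 77032340). Dbh lies on chromosome 2 (27165233 to 27183200), Slc6a2 on 8 (92960079 to 93001667) and Chat on 14 (32408203 to 32465989). Slc18a2 ends at 59296012 of chromosome 19 and Slc5a7 at 54299034 of chromosome 17 in all 3 annotations, and their starts differ between annotations. Slc18a3, which loads acetylcholine into vesicles, lies inside Chat on the same strand, and whether they share exons was not examined. Genes on the other strand overlap Slc18a2, Ddc, Slc6a4 and Chat; the libraries were stranded, and the strand setting of the counting differed between ages.

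A library held 10609896 to 29942380 counted reads (median 21049839). Tpp1 ran from 16.1 to 27.8 CPM in the Tpp1-/- libraries and from 42.1 to 111 CPM in the control libraries, without overlap. CPM is the count scaled by the TMM method and by library size. Most region marker lists followed the labels, since 8 Purkinje cell genes summed to 7736 to 11451 CPM in Cb against 1272 to 1765 CPM in F/M, and 10 cortex and hippocampus genes to 797.7 to 1373 CPM in F/M against 55.8 to 77.9 CPM in Cb. The midbrain and thalamus list went the other way, at 1864 to 2467 CPM in Cb against 416.6 to 635.5 in F/M, with Zic1, Rora and Calb2 at 1105, 454 and 418 CPM in Cb control replicate 1 of 2 months, as did the olfactory bulb list at 58.9 to 95.7 CPM in Cb against 15.2 to 33.4, so neither list is specific to F/M here. Some Cb libraries stood apart in the monoamine genes. They were high in control replicate 2 and Tpp1-/- replicate 3 of 1 month and in control replicates 1 and 2 of 3 months, and Dbh and Slc6a2 were near 0 in replicate 2 of both groups of 2 months. Results that rest on 1 of these libraries are given with and without it. In bulk tissue, fewer cells of a type and less RNA per cell cannot be told apart.

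In F/M the genes of dopamine neurons led. Per kilobase of exon, the scale that allows genes to be compared, Th, Slc6a3 and Ddc held the first 3 places in each of the 6 groups, with Th at 4.98 ± 0.27, Slc6a3 at 4.96 ± 0.63 and Ddc at 3.89 ± 0.50 CPM per kb in the controls of 2 months (mean ± SD, n = 3). Neighbours among these 3 overlapped within their SD in every F/M group. In controls Slc18a2 and Slc5a7 followed, and at 2 months they stood at 3.09 ± 0.18 and 1.74 ± 0.16 CPM per kb. Slc6a2 was last in all 6 groups and was at 0 CPM in the median F/M library. In CPM over 18 F/M libraries, Th ran from 5.71 (median 10.3) to 18.2, Ddc from 10.98 (16.3) to 23.0, Slc6a3 from 5.38 (14.8) to 26.4 and Slc18a2 from 5.63 (11.3) to 18.7. Chat ran from 2.76 (median 4.0) to 5.58 and Slc5a7 from 8.09 (12.3) to 16.0 CPM, the narrowest of the set by the ratio of the highest to the lowest library. Tph2 ran from 0.666 (median 1.81) to 13.8 and Slc6a4 from 0 (0.201) to 8.01 CPM, so that most F/M libraries had little of the serotonin genes and a few had much more.

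In Cb the order was different. Th led 5 of the 6 groups, at 3.83 ± 0.92 CPM per kb in the controls of 2 months, followed by Ddc at 1.58 ± 0.24, which it exceeded beyond their SD. In the controls of 3 months Tph2 had the highest mean, 5.26 ± 4.38 CPM per kb, which overlapped with Th at 4.61 ± 0.37 and, further down the order, each neighbour overlapped with the next. Slc6a3 and Chat held the last 2 places in all 6 groups, with Slc6a3 at 0 to 0.464 CPM and 0 to 10 counts. Thus Th was measured in Cb at 5.13 to 11.6 CPM (median 8.35) beside almost no dopamine transporter.

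The Cb levels of most of the genes varied widely between mice of 1 group. In groups whose lowest library held more than 3 counts, the highest exceeded the lowest by up to 40.9-fold for Slc18a2, 33.0-fold for Tph2, 30.3-fold for Slc6a4, 18.5-fold for Slc6a2, 10.4-fold for Dbh and 9.22-fold for Slc5a7. In groups with 3 counts or fewer in the lowest library no fold is given, and within 1 such group Dbh ran from 0 to 122 counts, Slc6a2 from 2 to 166, Slc6a4 from 2 to 159, Slc18a2 from 1 to 112 and Chat from 2 to 35. For Ddc this was 3.80-fold and for Th 1.63-fold. The SD of log2 CPM of Slc18a2 was in the top 5% of all genes in 6 of 6 Cb groups, that of Slc6a4, Dbh and Slc6a2 in 5, that of Tph2, Chat and Slc5a7 in 4, that of Slc6a3 in 2, that of Ddc in 1 and that of Th in none. The median SD of all genes lay between 0.0994 and 0.236 in those groups. In F/M the SD of Slc6a4 was in the top 5% in 6 of 6 groups and that of Tph2 in 4, while Chat, Slc5a7 and Ddc were there in none.

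**Figure D1:**
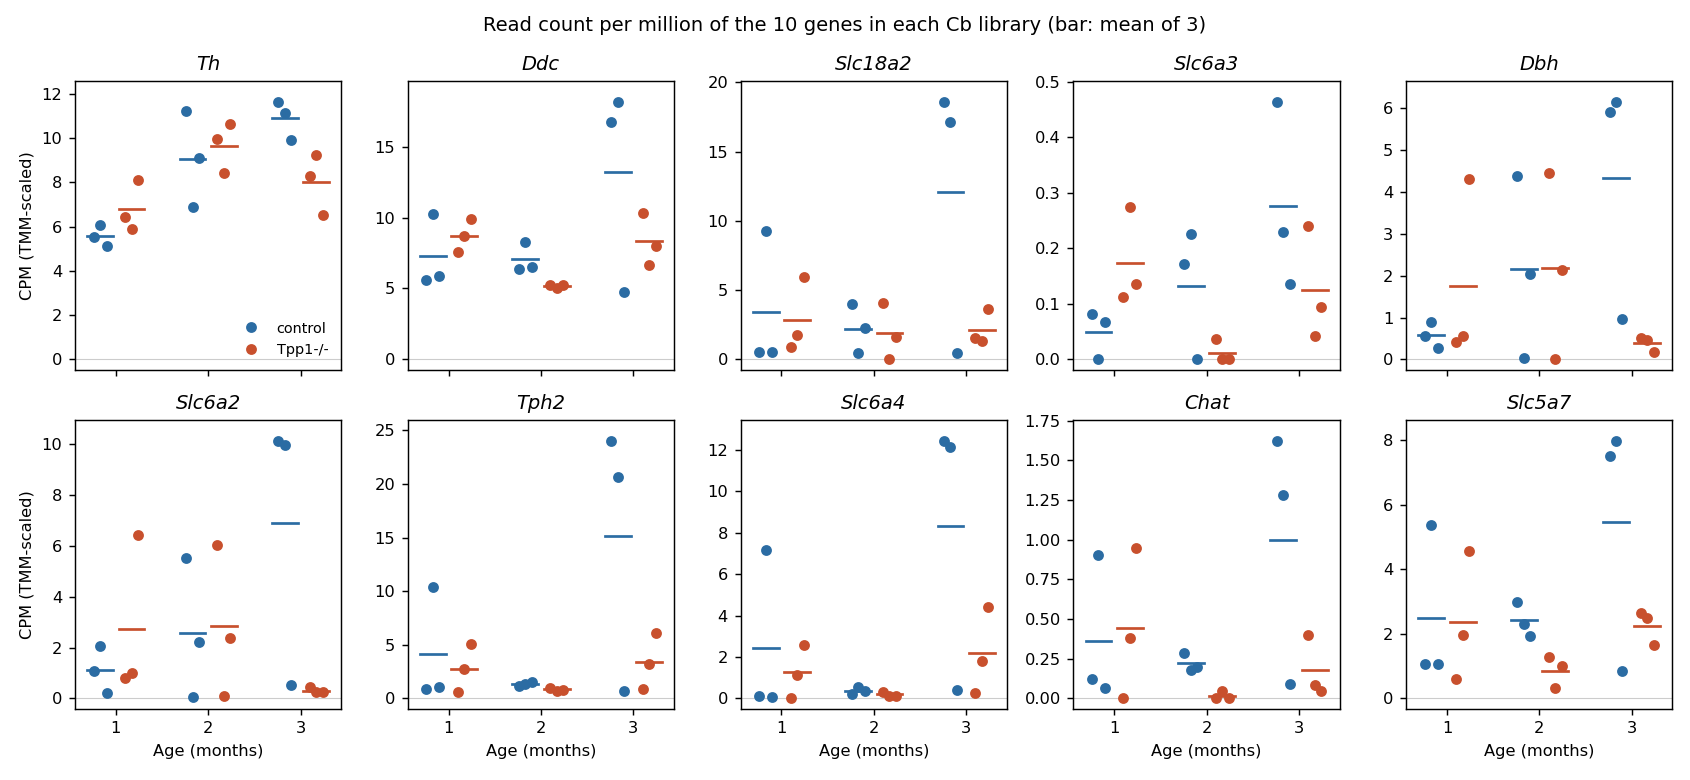
TMM-scaled CPM (vertical axis, its own scale for each gene) of the 10 genes in each Cb library by age in months, with controls in blue, Tpp1-/- in orange and a bar at the mean of 3. For Tph2, Slc6a4, Slc18a2, Dbh and Slc6a2 the controls of 3 months split into replicates 1 and 2, high, and replicate 3, low, while Th stays between 5.13 and 11.6 CPM in all 18 libraries.

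The comparison of F/M with Cb in controls shows where each gene was measured. At 1 month 5 of the 10 genes were called, meaning an adjusted p under 0.1 by the edgeR quasi-likelihood test and a fold change of at least 1.5, where 36.9% of all genes tested were called. At 2 months 7 were called (39.3% of all genes) and at 3 months 7 (37.7%). Slc6a3, Chat and Slc5a7 were higher in F/M at each age. The log2 differences of Slc6a3 were 7.56 ± 0.67 (SE; adjusted p = 1.32e-07), 6.93 ± 0.33 (1.06e-12) and 5.66 ± 0.42 (5.46e-08) at 1, 2 and 3 months, those of Chat 3.39 ± 0.66, 3.94 ± 0.29 and 2.25 ± 0.50, and those of Slc5a7 2.39 ± 0.53, 1.91 ± 0.21 and 1.31 ± 0.45. The noradrenaline transporter Slc6a2 was higher in Cb at each age. Its log2 difference was -4.89 ± 1.44 (adjusted p = 0.00970) at 1 month, on 2 counts in F/M against 79 in Cb, and -5.23 ± 1.01 (0.000587) at 3 months, and with the replicate block it was not called at 1 month (-3.42, 0.269). At 2 months no F/M control library had a count of Slc6a2, and against a floor of 3 counts per library Cb was at least 17.5-fold higher. Dbh was higher in Cb at 2 months (-3.13 ± 1.17, adjusted p = 0.0254) and 3 months (-3.21 ± 0.64, 0.000744), and had -0.35 ± 0.82 at 1 month. Without Cb control replicate 1 of 2 months it had -2.11 (0.177), and limma-voom did not call it at that age (-1.67, 0.455). Ddc was higher in F/M at 1 month (0.92 ± 0.24, 0.00471) and 2 months (1.29 ± 0.12, 1.52e-08) and Slc18a2 at 2 months (2.47 ± 0.49, 0.000210). At 1 month Slc18a2 had 1.59 ± 0.79 (0.104) and, without Cb control replicate 2, the library with 9.24 CPM, 4.25 (0.000228), and with the replicate block 4.45 (0.00385). Tph2 and Slc6a4 were higher in Cb at 3 months, by log2 differences of -3.18 ± 0.87 (0.00744) and -4.33 ± 1.09 (0.00420), and had values of 0.69 ± 0.47 and 0.93 ± 0.89 at 2 months. At 3 months Cb control replicate 3 lay among the F/M controls for Slc6a4 (0.410 CPM against 0.153 to 0.838) and below them for Tph2 (0.729 against 1.02 to 2.56), and limma-voom (adjusted p = 0.224 and 0.153) and the replicate block (0.115 and 0.169) called neither. Th was called at no age, although at 1 month it was called with the replicate block (1.11, 0.00637) and without F/M control replicate 1 (0.76, 0.0425).

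At 1 month the control libraries of the same number in F/M and Cb deviated together. Some control and Tpp1-/- libraries of the same number, which were different mice, did so as strongly, so pairing is not shown. With the number as a block across regions, a setting chosen after seeing the data, 8 of the 10 genes were called. The 36.9% of all genes given above is from the fit without this block. The block added Slc18a2 (log2 difference 2.16, adjusted p = 0.00310), Tph2 (-0.88, 0.0429) and Slc6a4 (-2.07, 0.00914). A defining gene moved with the serotonin genes at 3 months. The serotonin factor Fev had 20, 13 and 0 counts in the Cb controls of 3 months and 0, 0 and 1 in the F/M controls of that age, and its part in the region difference was not tested.

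**Figure D2:**
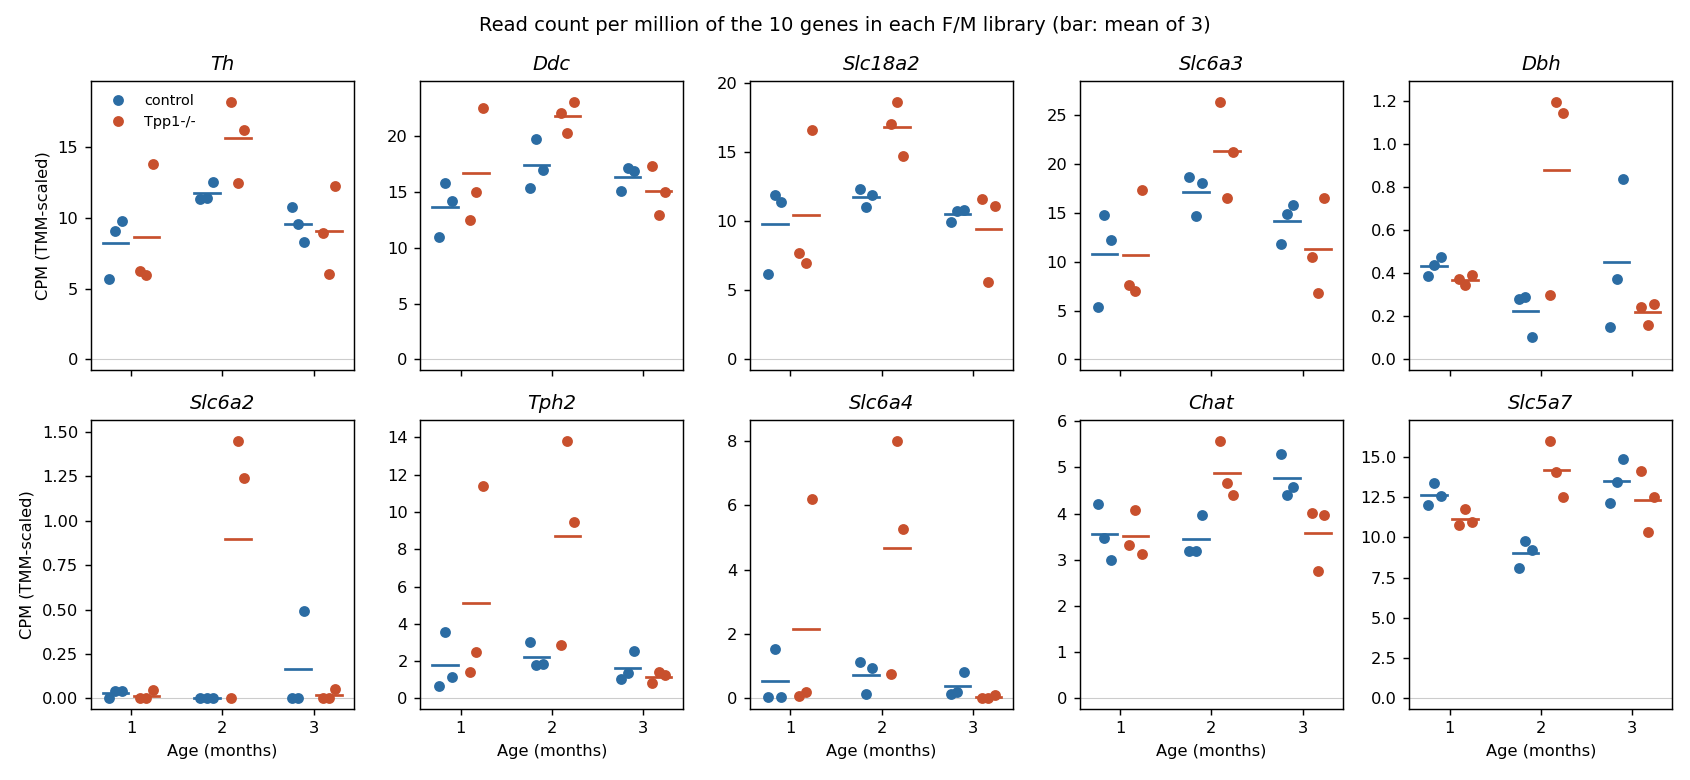
TMM-scaled CPM of the 10 genes in each F/M library by age in months, drawn as for Cb. At 2 months the Tpp1-/- libraries of Chat and Slc5a7 all lie above the controls, and Tpp1-/- replicates 2 and 3 are the high libraries of Tph2 and Slc6a4.

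At 1 month no member was called between Tpp1-/- and control mice in F/M or in Cb by edgeR, where 0.0112% of all genes were called in each region. DESeq2 and limma-voom called none either. At an unadjusted p under 0.05 there were 0 members in F/M and 1 in Cb, Dbh, with a log2 fold change of 1.63 ± 0.69 (adjusted p = 0.630). Dbh stood at 0.413, 0.547 and 4.29 CPM in the Tpp1-/- Cb libraries and at 0.567, 0.901 and 0.268 in controls, so that 1 library of 3 was high and the groups overlapped. Without that library Dbh had -0.23 (adjusted p = 0.820). The same Tpp1-/- library, replicate 3, had 6.41 CPM of Slc6a2 against 0.789 and 0.985 in the others, and 5.92 CPM of Slc18a2 against 0.864 and 1.75. In controls, replicate 2 was the high library for serotonin. Its Tph2, the first enzyme of serotonin synthesis, was at 10.4 CPM against 0.891 and 1.04 in replicates 1 and 3, and its Slc6a4 at 7.16 against 0.122 and 0.0671. In F/M, Tpp1-/- replicate 3 had 11.4 CPM of Tph2 against 1.42 and 2.497, 6.20 of Slc6a4 against 0.0833 and 0.215, and 13.8 of Th against 6.25 and 5.94.

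At 2 months the F/M levels of Tph2, Slc6a4 and Slc5a7 rose in Tpp1-/- mice, 3 of 10 genes where 0.737% of all genes were called. All 10 genes had a log2 fold change above 0, with a median of 0.60, the same with Slc6a2 at its bound, where the median of all genes was 0.00388. Tph2 stood at 2.89, 13.8 and 9.47 CPM in Tpp1-/- against 3.01, 1.79 and 1.83 in controls, and Slc6a4 at 0.747, 8.01 and 5.26 against 1.13, 0.145 and 0.943. Tpp1-/- replicate 1 lay within the controls for both serotonin genes, and replicates 2 and 3 lay above all of them. The log2 fold change was 1.93 ± 0.38 for Tph2 (adjusted p = 0.0219) and 2.60 ± 0.61 for Slc6a4 (0.0468). Slc5a7, the choline transporter, stood at 16.0, 14.1 and 12.5 CPM against 8.09, 9.75 and 9.22, so that the groups did not overlap, with a log2 fold change of 0.67 ± 0.17 (adjusted p = 0.0629).

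The other F/M genes of 2 months missed the threshold. Chat stood at 5.58, 4.67 and 4.399 CPM in Tpp1-/- against 3.20, 3.19 and 3.98 in controls (log2 fold change 0.52 ± 0.18, adjusted p = 0.155). Ddc stood at 22.0, 20.3 and 23.0 CPM against 15.3, 19.8 and 17.0 (0.32 ± 0.11, 0.143), and Th at 18.2, 12.5 and 16.3 against 11.4, 11.4 and 12.5 (0.42 ± 0.15, 0.179). Slc6a3 stood at 26.4, 16.5 and 21.2 CPM against 18.7, 14.7 and 18.1 (0.33 ± 0.16, 0.299). Chat, Ddc, Slc18a2, Dbh and Slc5a7 did not overlap between the groups, and of these Slc5a7 was called. How many of all genes separated in this way was not counted. An unadjusted p under 0.05 was reached by 6 of the 10 genes and by 2907 of 17229 genes. Slc18a2, the vesicular transporter, stood at 17.1, 18.7 and 14.7 CPM against 12.4, 11.01 and 11.9 with a log2 fold change of 0.53 ± 0.38 (adjusted p = 0.517). For noradrenaline, Dbh stood at 0.299, 1.20 and 1.15 CPM against 0.282, 0.290 and 0.105 (1.80 ± 1.45, 0.570). Slc6a2 was at 0, 1.45 and 1.24 CPM against 0 in all 3 controls, at least 6.08-fold higher against a floor of 3 counts per library, with an adjusted p of 0.340.

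Some marker lists differed between these F/M groups. The sum of 7 cranial motor neuron genes, with Slc5a7 left out of the list, was 11.7, 11.5 and 10.9 CPM in Tpp1-/- against 8.84, 11.2 and 9.22 in controls, with overlap. That of 18 hindbrain and isthmus genes was 120.8, 114.9 and 122.8 against 102.0, 112.4 and 107.5, and that of 14 midbrain and thalamus genes was 581.4, 543.9 and 561.0 against 416.6, 516.4 and 466.5. The cortex and hippocampus sum was 797.7, 1074 and 986.8 CPM against 1151, 996.9 and 1102. Their part in the result was not tested. Without F/M control replicate 3, or without Tpp1-/- replicate 3, none of the 10 genes was called (adjusted p of Tph2 0.104 and 0.107). Without Tpp1-/- replicate 2, Tph2 had a log2 fold change of 1.34 (0.0588) and Slc6a4 of 1.80 (0.144), and without Tpp1-/- replicate 1 they had 2.40 (2.48e-05) and 3.18 (0.000956) while Slc5a7 had 0.56 (0.327). With only the 6 libraries compared, Tph2 (0.124) and Slc6a4 (0.179) were not called. With all libraries, Slc6a4 was not called by DESeq2 (0.102) or limma-voom (0.211).

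In Cb of 2 months the choline transporter gene Slc5a7 fell in Tpp1-/- mice. Chat was also called, on few counts, which makes 2 of 10 genes where 2.05% of all genes were called. Slc5a7 stood at 1.27, 0.318 and 1.00 CPM in Tpp1-/- against 2.99, 2.31 and 1.95 in controls, without overlap, a log2 fold change of -1.44 ± 0.30 (adjusted p = 0.00992). Chat stood at 0, 0.0454 and 0 CPM against 0.288, 0.181 and 0.200, which is 1 count against 13, a ratio of 0.0699 with an exact 95% counting interval of 0.00164 to 0.465 (adjusted p = 0.0347). With 0 to 5 counts in each of these Cb libraries, Chat passed the filter on low counts through F/M, where it had 46 to 112, and it was not tested when only the 6 Cb libraries were used. Slc18a3, which lies inside Chat, had 0, 1 and 1 counts in Tpp1-/- and 1, 0 and 0 in controls. Without Tpp1-/- replicate 1, Tpp1-/- replicate 3 or control replicate 1, Chat missed the threshold (0.200, 0.110 and 0.109), whereas Slc5a7 passed it without any 1 of the 6 libraries.

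None of the 8 monoamine genes was called in the same Cb libraries, and 5 of the 8 had a log2 fold change below 0. Ddc stood at 5.28, 5.04 and 5.25 CPM against 6.38, 8.27 and 6.49 (log2 fold change -0.45 ± 0.13, adjusted p = 0.107) and Tph2 at 1.02, 0.727 and 0.812 against 1.21, 1.36 and 1.55 (-0.66 ± 0.55, 0.822), both without overlap between the groups. Slc6a3, on 1 count against 8, had -2.70 ± 1.35 (0.556), Slc6a4 -0.84 ± 1.13 (0.916) and Slc18a2 -0.04 ± 0.61 (0.997). Dbh was at 4.44, 0 and 2.12 CPM in Tpp1-/- and 4.37, 0.0452 and 2.05 in controls, and Slc6a2 at 6.04, 0.0908 and 2.37 against 5.52, 0.0452 and 2.20. The groups overlapped for the noradrenaline genes (95% intervals of the log2 fold change -1.44 to 1.74 and -1.5 to 2.05), while replicate 2 of each group had almost none of them. Th was at 9.97, 8.40 and 10.6 CPM against 11.2, 6.87 and 9.09, so that it was lowest in replicate 2 of each group, where Dbh was near 0, and was still at 6.87 CPM or more there.

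Beside these values, the cranial motor neuron sum without Slc5a7 was 2.62, 0.273 and 1.37 CPM in Cb of the Tpp1-/- mice and 3.51, 1.85 and 2.75 in controls, with overlap. Mnx1 was at 0 in both groups and Tbx20 in the Tpp1-/- group. The hindbrain and isthmus sum did not separate the groups, at 289.9, 312.2 and 326.0 against 330.4, 318.0 and 310.3 CPM. Of that list Gata3, Hoxc4 and Lhx4 were at 0 in all 3 Tpp1-/- libraries and Hoxa2, Hoxa3, Hoxb3, Hoxb5 and Hoxd3 in all 3 controls. Against a floor of 3 counts per library, Gata3 was at least 8.55-fold lower. For the others the group above 0 had a mean of 0.220 to 1.05 times the floor, too low to tell the groups apart. The sum thus stayed high where several Hox genes were at 0 and does not follow them. Of 14 midbrain and thalamus markers 5 fell and of 10 striatum markers 3 fell, and none of either list rose. Of 17229 genes tested, 310 were called lower and 43 higher. The cortex and hippocampus sum (61.1 to 69.4 CPM against 70.7 to 77.9) and the hypothalamus sum (0.562 to 1.04 against 1.32 to 1.55) were lower in Tpp1-/- mice without overlap. The Purkinje cell sum was higher without overlap (9647 to 11451 against 9165 to 9347). Of 10 choroid plexus markers 5 rose and none fell, and their sum was 1789, 1609 and 1733 CPM against 1283, 987.1 and 1096. The part of these in the values of Chat and Slc5a7 was not tested.

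**Figure D3:**
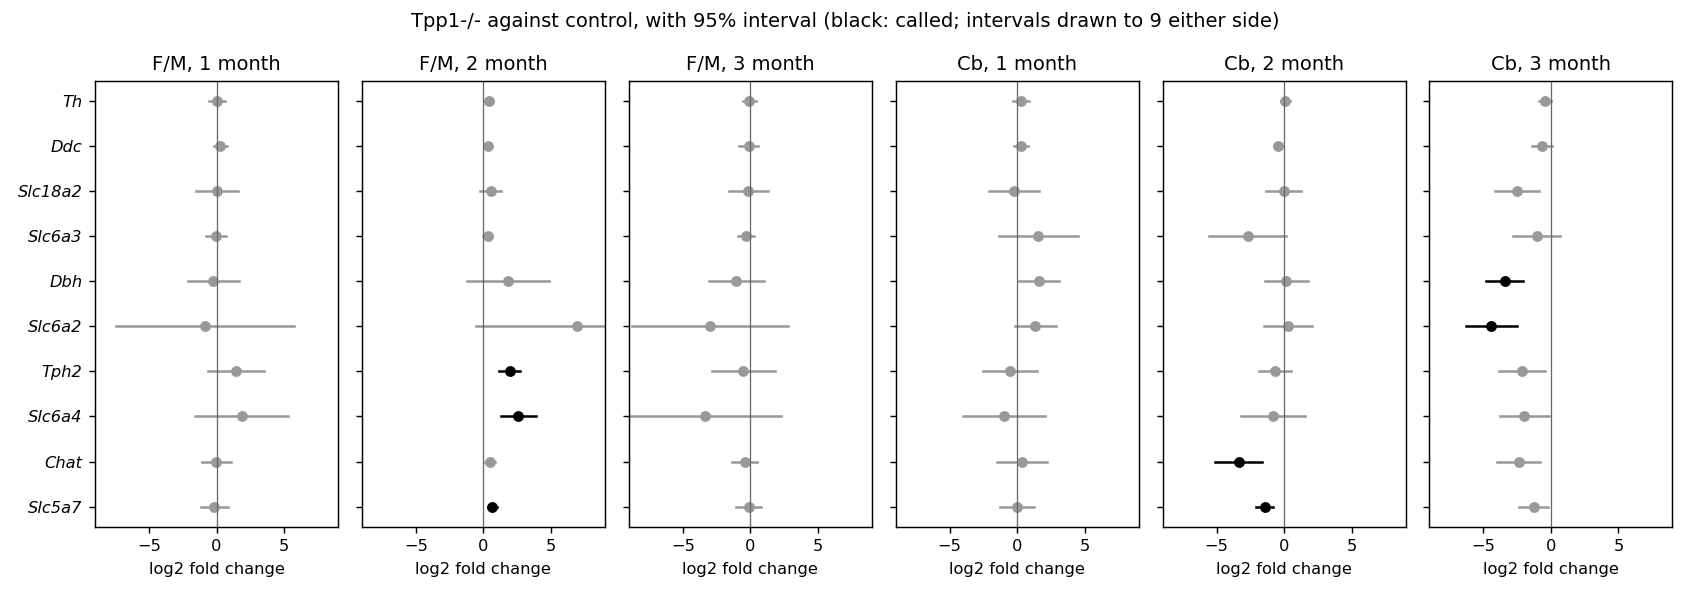
Log2 fold change of Tpp1-/- against control (horizontal axis) of each gene with its 95% interval, in F/M (3 panels on the left) and Cb (3 on the right) at 1, 2 and 3 months; black marks called genes and intervals end at the edge of the axis where they run past it. Slc6a2 in F/M at 2 months, with all controls at 0, is drawn at its fitted value, which is no bound. All 10 genes lie above 0 in F/M at 2 months and below 0 in both regions at 3 months, and 7 points are called in all, 3 in F/M at 2 months, 2 in Cb at 2 months and 2 in Cb at 3 months.

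At 3 months Dbh and Slc6a2 fell in Cb of Tpp1-/- mice, 2 of 10 genes where 0.859% of all genes were called. All 10 genes had a log2 fold change below 0, with a median of -2.07 where the median of all genes was -0.00271. Dbh stood at 0.519, 0.466 and 0.188 CPM in Tpp1-/- against 5.89, 6.15 and 0.957 in controls (log2 fold change -3.43 ± 0.63, adjusted p = 0.0186). Slc6a2 stood at 0.439, 0.254 and 0.235 CPM against 10.1, 9.95 and 0.547 (-4.43 ± 0.88, 0.0310). For both genes every Tpp1-/- library lay below every control, and control replicate 3 lay far nearer to the Tpp1-/- libraries than to the other controls.

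The serotonin genes had the same split among controls and were not called. Tph2 stood at 0.838, 3.26 and 6.15 CPM in Tpp1-/- against 24.0, 20.7 and 0.729 in controls (log2 fold change -2.17 ± 0.79, adjusted p = 0.529), and Slc6a4 at 0.279, 1.82 and 4.41 against 12.4, 12.1 and 0.410 (-1.97 ± 0.84, 0.7). Slc18a2 stood at 1.56, 1.31 and 3.61 CPM against 18.6, 17.1 and 0.455 (-2.50 ± 0.76, 0.334). Here control replicate 3 lay within or below the range of the Tpp1-/- libraries. The acetylcholine genes did likewise, with Slc5a7 at 2.63, 2.497 and 1.64 CPM against 7.52, 7.98 and 0.865 (-1.26 ± 0.50, 0.636) and Chat at 0.399, 0.0847 and 0.0469 against 1.62, 1.28 and 0.0911 (-2.40 ± 0.75, 0.360). Ddc was at 10.3, 6.65 and 8.03 CPM against 16.8, 18.2 and 4.78 (-0.67 ± 0.34, 0.805). Th, at 8.30, 9.23 and 6.53 CPM against 11.6, 11.1 and 9.93, did not overlap between the groups and had -0.44 ± 0.21 (0.777).

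The Cb calls of 3 months changed when control replicate 3 was left out. Without it 8 of the 10 genes were called by edgeR, where 1.13% of all genes were, with log2 fold changes of -4.97 for Slc6a2 (adjusted p = 0.000475), -3.90 for Dbh (0.000562), -3.07 for Slc18a2 (0.00135), -1.77 for Slc5a7 (0.00115), -2.94 for Chat (0.0153), -2.73 for Tph2 (0.0217), -2.53 for Slc6a4 (0.0949) and -1.07 for Ddc (0.0112). In that fit 2 control libraries remained. Without Tpp1-/- replicate 3 none was called, Dbh having -3.12 (0.102) and Slc6a2 -4.28 (0.151). Without control replicate 1, control replicate 2 or Tpp1-/- replicate 2, Dbh alone was called (0.0956, 0.0954 and 0.0617). Replicate 3 was the female of each group, and with sex as a term Dbh had -3.34 (0.0215) and Slc6a2 -4.23 (0.0340). limma-voom called none of the 10, with 0.309 for Dbh and 0.713 for Slc6a2, and DESeq2 called Dbh (1.69e-05) and not Slc6a2 (0.229).

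Genes that define the same cells moved with these libraries. Fev, the factor of serotonin neurons, had 20, 13 and 0 counts in the Cb controls of 3 months and 2, 1 and 5 in Tpp1-/-. Slc18a3 had 17, 21 and 1 against 7, 2 and 1. The cranial motor neuron sum without Slc5a7 was 4.87, 5.46 and 1.78 CPM in controls and 3.91, 1.99 and 1.55 in Tpp1-/-, with overlap. By mean log2 CPM of the hindbrain and isthmus list, the controls stood at 1.07, 0.99 and 0.34 and the Tpp1-/- libraries at 0.05, 0.12 and -0.01, without overlap, and this mean had r of 0.788 with Dbh and 0.804 with Slc6a2 over the 18 Cb libraries. The summed CPM of the list was instead highest in control replicate 3, at 298.2, 315.3 and 383.7 against 292.0, 296.8 and 275.8, and the choroid plexus sum was 965.7, 1016 and 1532 against 1733, 833.4 and 860.9. The microglia sum was higher in Tpp1-/- Cb without overlap, at 172.864 to 255.523 CPM against 95.015 to 111.608 in controls. The part of these in the results was not tested.

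In F/M of 3 months no member was called, where 0.464% of all genes were called, and none had an unadjusted p under 0.05. DESeq2 and limma-voom called none. All 10 log2 fold changes lay below 0, with a median of -0.37 where the median of all genes was -0.00264. These signs are not independent, since every pair of the genes had r above 0 over the F/M libraries. Slc6a2 rests on 1 count in Tpp1-/- against 10 in controls. Slc6a4 and Chat did not overlap between the groups, and the share of all genes without overlap was not counted. Slc6a4 had 2 counts in the Tpp1-/- libraries against 23 in controls, a ratio of 0.0832 with an exact 95% counting interval of 0.00950 to 0.337, which covers counting error only, and an adjusted p of 1.00. Chat stood at 4.02, 2.76 and 3.96 CPM against 5.30, 4.41 and 4.58 (-0.41 ± 0.44). The summed markers of midbrain and thalamus (457.6 to 537.6 CPM against 612.7 to 635.5), hindbrain and isthmus (98.9 to 113.9 against 129.3 to 129.9) and striatum (766.8 to 855.0 against 879.9 to 962.9) were lower in Tpp1-/- mice without overlap. So were those of Purkinje cells (1571 to 1631 against 1730 to 1765) and granule cells (182.5 to 199.6 against 200.3 to 208.6). The microglia sum was higher without overlap (347.7 to 374.9 against 290.2 to 303.8). The part of these lists in these values was not tested.

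The regions differed in the effect of the genotype at 2 months. The difference of the log2 fold change, Cb minus F/M, was tested in 1 model and called at an adjusted p under 0.1 for 4 of 10 genes, where 2.97% of all genes were called. It was -2.10 ± 0.35 for Slc5a7 (adjusted p = 0.00143), -3.89 ± 0.84 for Chat (0.0170), -0.77 ± 0.17 for Ddc (0.0198) and -2.60 ± 0.68 for Tph2 (0.0540). All 10 values were below 0. Slc5a7 was called in both regions in opposite directions, higher in F/M and lower in Cb. Ddc missed the threshold in each region by itself. Slc5a7, Chat and Ddc passed without any 1 of the 12 libraries, and Tph2 in 6 of 12 such fits. The value of Chat rests on the same 1 count against 13 in Cb, and it entered the fit through its F/M counts. Tph2 was not called by limma-voom (0.282) or with the replicate block (0.136). At 1 month none of the 10 differed, where 0% of all genes were called and 0 members and 347 of all genes had an unadjusted p under 0.05. At 3 months none differed, where 0.00581% were called. At 3 months Chat (-1.99 ± 0.89) and Slc18a2 (-2.35 ± 1.02) had an unadjusted p under 0.05. DESeq2 and limma-voom called none at either age.

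The change of the genotype effect with age was tested in a model of all 36 libraries, and no member was called in any of the 4 comparisons by edgeR. From 1 to 2 months 0.0218% of all genes were called in F/M and 1.28% in Cb, and from 2 to 3 months 0.393% in F/M and 1.44% in Cb. At an unadjusted p under 0.05 there were 0 members in the first 3 of these and 2 in the last, Dbh (-3.54 ± 1.23, adjusted p = 0.302) and Slc6a2 (-4.66 ± 1.5, 0.217). DESeq2 called 1 member, from 2 to 3 months in F/M, and limma-voom none. All 10 F/M values were above 0 from 1 to 2 months and below 0 from 2 to 3 months, and both comparisons share the libraries of 2 months. In Cb, 7 of 10 were below 0 from 2 to 3 months. Age and the settings of read counting cannot be told apart for the levels, while each effect was taken within its age.

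Across the 18 Cb libraries, with the mean of each age taken out, the genes of noradrenaline, serotonin and acetylcholine each followed their partner. Pearson's r of log2 CPM was 0.972 for Dbh with Slc6a2, 0.967 for Tph2 with Slc6a4 and 0.878 for Chat with Slc5a7, while Th and Slc6a3 of dopamine had 0.177. Some genes of different transmitters were nearly as close, such as Slc18a2 with Slc5a7 (0.844) and Tph2 with Slc5a7 (0.810). All 45 pairs of the 10 genes had r above 0, from 0.103 to 0.972 with a median of 0.588. A sign shared by the 10 genes in a comparison is therefore not 10 independent results. The 18 libraries share their tissue, their depth range and both genotypes, and r is a description of them. Among 16713 genes, Slc6a2 was the gene most like Dbh, Dbh most like Slc6a2, Slc6a4 most like Tph2 and Tph2 most like Slc6a4. Th was most like Dbh (0.852) and Slc6a2 (0.839), followed by Lmx1b, a factor of monoamine neurons, and it had 0.310 with Tph2. Slc18a2, which serves all monoamines, had 0.854 with Slc6a2, 0.808 with Dbh and 0.799 with Tph2, and its most like gene was the calcitonin receptor gene Calcr (0.911). Slc5a7 was most like Irs4 (0.944), the sodium channel gene Scn9a (0.903) and Epb41l4a (0.899). Ddc had 0.823 with Chat and 0.715 with Slc18a2, against 0.306 with Th, and its most like genes were Sdhaf3 (0.922), Coch (0.900) and Magee2 (0.890).

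**Figure D4:**
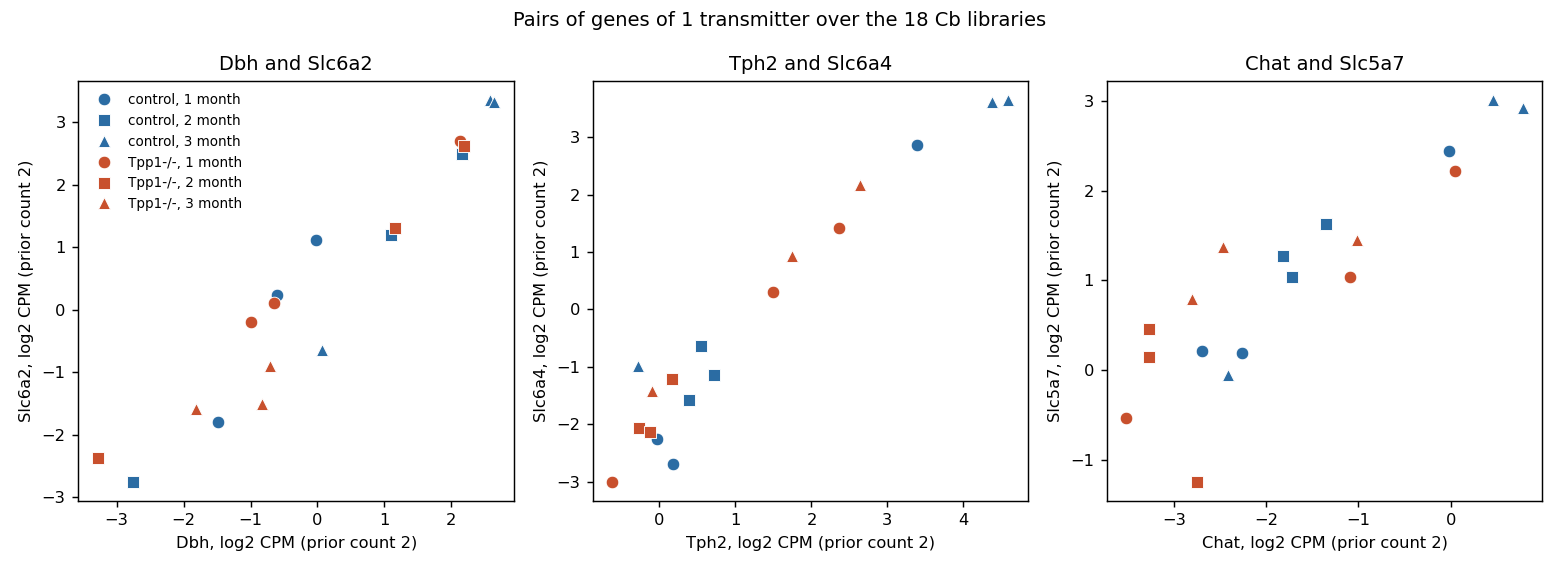
Log2 CPM (prior count 2) of Slc6a2 against Dbh, Slc6a4 against Tph2 and Slc5a7 against Chat in the 18 Cb libraries; colour gives the genotype and the marker shape the age in months. In the first 2 panels both genes of a pair rise together over libraries of both genotypes (r of 0.972 and 0.967 with age means removed), from the lowest libraries (Slc6a2 at 0.0452 CPM, Tph2 at 0.563) to the highest (10.1 and 24.0).

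In F/M the pairs were the same for serotonin (Tph2 with Slc6a4, 0.921) and noradrenaline (Dbh with Slc6a2, 0.916), on libraries most of which had 0 counts of Slc6a2, and dopamine took the place that noradrenaline had in Cb. Th had 0.882 with Slc6a3 and 0.861 with Slc18a2, against 0.127 with Dbh. The genes most like Th were Slc6a3, Chrna6 (0.870), a nicotinic receptor subunit of dopamine neurons, Slc18a2, Pnoc and Lmx1b. Those most like Slc6a3 included Chrna6 (0.890) and Ret (0.871), the receptor for GDNF, and those most like Slc6a4 included Syt2 (0.905), Pax5 (0.873) and Gata3 (0.820), a factor of serotonin neurons. Ddc was most like Sncg (0.905), the gamma-synuclein gene. Chat had 0.694 with Slc5a7 in F/M, and Chat with Tph2 had the lowest value of the 45 F/M pairs, 0.0632.

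**Figure D5:**
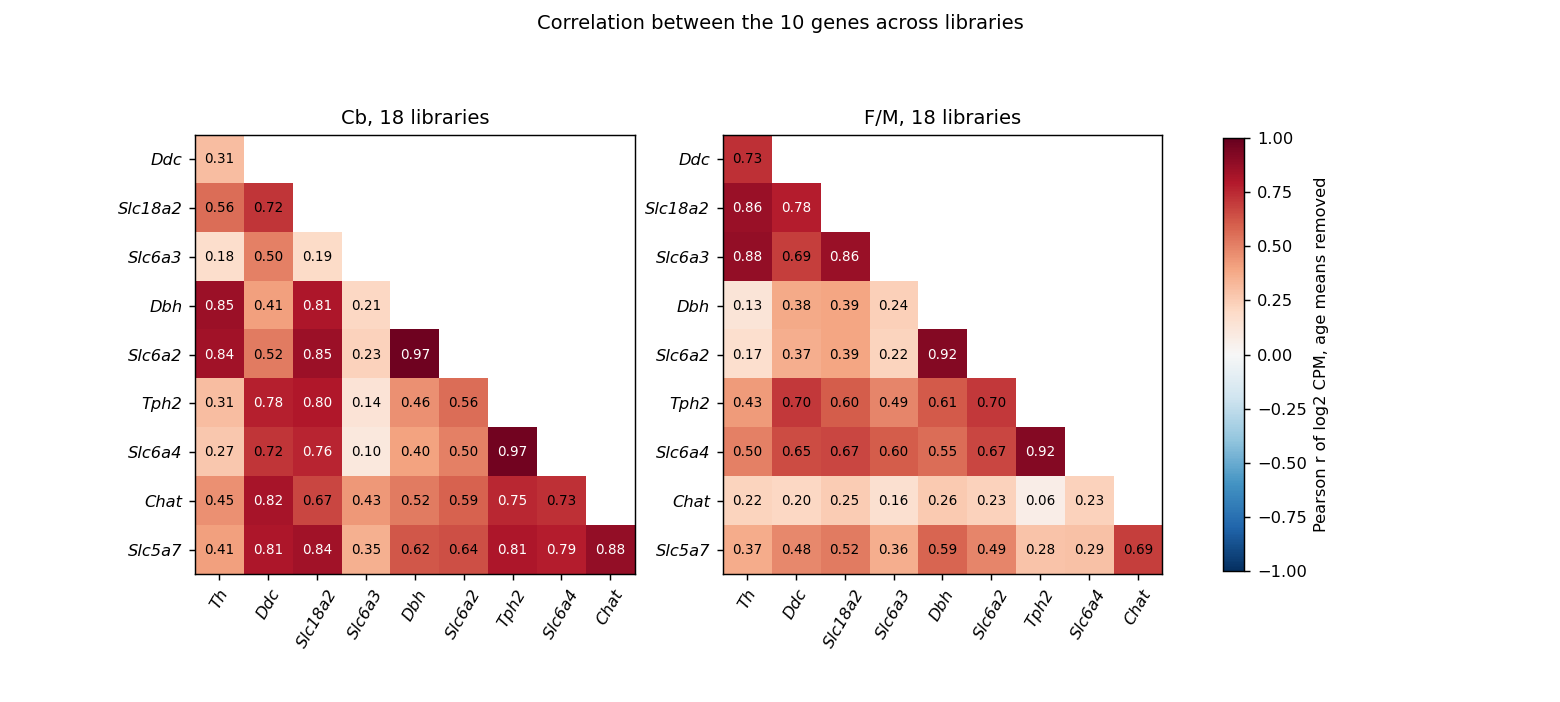
Pearson's r of log2 CPM between each pair of the 10 genes, with age means removed, over 18 Cb libraries (left) and 18 F/M libraries (right); the colour scale runs from -1 to 1. The pair Th and Dbh has 0.852 in Cb and 0.127 in F/M, and no pair of either region is below 0.

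The other genes of these pathways were described by 9 lists written from general knowledge, and a list is given by its count of called genes. Of 16 genes of cofactor synthesis and amine breakdown (such as Gch1 and Maoa), 13 to 14 were tested and none was called between genotypes in either region at any age. The lists of dopamine, serotonin, noradrenaline and acetylcholine neuron genes and of the receptors had no called gene at 1 month. In F/M the calls were En2 and Tfap2b, which pattern or specify neurons, and the adrenoceptor Adra1a. All 3 were higher in Tpp1-/- mice at 2 months, where 0.737% of all genes were called, and none was called at 3 months. En2 stood at 1.84, 2.46 and 1.82 CPM against 0.846, 1.11 and 0.891 (log2 fold change 1.10 ± 0.23, adjusted p = 0.0280), and Adra1a at 10.9, 11.4 and 11.6 against 8.79, 4.30 and 6.76 (0.76 ± 0.18, 0.0462).

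In Cb of 2 months some of the receptor genes and factors fell beside Chat and Slc5a7, and most of each list were not called. Of 17229 genes tested, 310 were called lower and 43 higher (2.05% in all). Of 16 acetylcholine receptor genes tested 5 fell and none rose, with a median log2 fold change of -0.76 where that of all genes was 0, and of 12 serotonin receptor genes 4 fell and none rose (median -0.43). Of 14 dopamine neuron genes 1 fell (En1) and of 4 dopamine receptor genes 1, and none of 9 adrenoceptor genes was called. Of 11 serotonin neuron genes 4 fell, of 9 noradrenaline neuron genes 2 fell, and of 17 acetylcholine neuron genes 2 fell and 2 rose. The dopamine receptor Drd2 stood at 0.910, 0.409 and 0.7497 CPM against 5.06, 4.52 and 5.19 (-2.80 ± 0.22, 1.52e-07), and the serotonin receptor Htr1a at 0.546, 0.182 and 0.625 against 2.70, 4.11 and 2.60 (-2.82 ± 0.29, 4.38e-06). Chrm3, a muscarinic receptor, stood at 2.33, 1.59 and 1.06 CPM against 4.601, 5.97 and 4.04 (-1.48 ± 0.21, 0.000225). None of these 3 receptors was called in Cb at 1 or 3 months. The change of the effect from 1 to 2 months and from 2 to 3 months, which share the libraries of 2 months, was called for all 3, with -2.91 ± 0.28 and 2.93 ± 0.28 for Drd2.

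Among the factors of that age, Shox2 had 5, 5 and 4 counts in the Tpp1-/- Cb libraries against 126, 292 and 206 in controls (-5.55 ± 0.34, 4.73e-09), and Gata3 had 0, 0 and 0 against 17, 37 and 21, at least 8.55-fold lower against a floor of 3 counts per library (1.27e-05). Shox2 is also a marker of midbrain and thalamus neurons. At 1 and 3 months Shox2 stood at 6.76 to 13.9 CPM in Tpp1-/- Cb and at 6.10 to 10.7 in controls, and its effect changed by -5.54 ± 0.43 from 1 to 2 months and by 6.01 ± 0.43 from 2 to 3 months. Prph, a neurofilament gene of motor neurons, stood at 0.291, 0.0454 and 0.312 CPM against 1.32, 0.814 and 1.15 at 2 months (-2.30 ± 0.48, 0.00869). Ngfr, the low-affinity receptor of neurotrophins, rose at 2 months with a log2 fold change of 0.59 ± 0.14 (0.0332). At 3 months Nr4a2, which the study counts among the immediate early genes regulated by neuronal activity, was lower in Tpp1-/- Cb. It stood at 19.7, 25.1 and 26.1 CPM against 32.2, 34.5 and 44.5 (-0.65 ± 0.13, 0.0344). Nr4a2 is also a factor of dopamine neurons, whose Slc6a3 had 0 to 10 counts over the Cb libraries.

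Most receptor genes were higher in F/M, where 3783 of 17916 genes were called higher at 1 month, 3775 of 17229 at 2 months and 3429 of 17224 at 3 months. Of 12 serotonin receptor genes tested in controls, 11 were higher in F/M than in Cb at each age and none was lower, with a median log2 difference of 2.95 at 1 month where that of all genes was -0.0204. Of the adrenoceptors, 7 of 9 were higher and 1 lower at 1 month and 6 higher and 1 lower at 2 and 3 months. Of the acetylcholine receptors 13 of 17 were higher and 2 lower at 1 month, 9 of 16 higher and 1 lower at 2 months, and 10 of 15 higher and 2 lower at 3 months.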

How the data were processed

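RNA of both regions was read as stranded poly(A) libraries, and the deposited values are whole-number counts per gene made by the authors with featureCounts on GRCm38 after alignment with STAR 2.5.2b. Per the file headers, featureCounts was 1.6.3 with GENCODE M21 at 1 month and 1.6.2 with M16 and M18 at 2 and 3 months, the strand setting was 1 at 1 and 3 months and 2 at 2 months, and multimapping reads were counted in fractions, although the values are whole.

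Each age was fitted by itself with edgeR 4.0.16 (R 4.3.3; quasi-likelihood, TMM, filterByExpr, Benjamini-Hochberg over all genes tested, 17224 to 17916), and the change with age in 1 model over 18322 genes. A gene was called at an adjusted p under 0.1 and, between genotypes or regions, a fold of at least 1.5. Log2 CPM used a prior count of 2. The code was tested on simulated data. The alternatives were limma-voom (limma 3.58.1), DESeq2 1.42.0, other scalings, filters and thresholds, blocks, a sex term at 1 and 3 months, and leaving out each library. The 10 genes, all named in each comparison, and the lists were chosen with earlier results of these data known. Other genes are named where called (at most the 6 with the lowest adjusted p per list and comparison), where they define the cells of a member, or as the 5 most alike to a member with a mean count of at least 10. Promoters are from RefSeq. Some genes of the lists are counted in them and not reported by name here.

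The deviations of F/M and Cb controls of the same number correlated at 0.124 to 0.198 at 1 month, which was taken as pairing. Control and Tpp1-/- libraries of the same number, which were different mice, reached 0.214 in F/M and 0.229 in Cb at that age. Values of this size therefore do not show pairing. At least 1 pair was at or under 0.1 in every other set.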

Additional observations from a re-analysis of the deposited data

Results flagged for a closer look

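At 2 months the effect of the genotype differed between Cb and F/M for 4 of the 10 genes by the edgeR quasi-likelihood test of the difference itself, where 2.97% of all genes were called. The log2 fold change in Cb minus that in F/M was -2.60 for Tph2 (95% interval -4.02 to -1.18, adjusted p = 0.0540), -0.77 for Ddc (-1.13 to -0.41, 0.0198), -3.89 for Chat (-5.66 to -2.12, 0.0170) and -2.10 for Slc5a7 (-2.83 to -1.38, 0.00143). Every Tpp1-/- library of Ddc, Chat and Slc5a7 lay above every control in F/M and below every control in Cb, a pattern not counted over all genes. Tph2 did so in Cb alone, and its F/M groups overlapped. Its difference was not called by limma-voom (0.282) or with the replicate block (0.136). The value of Chat rests on 1 count against 13 in Cb, and Chat passed the filter on low counts through its F/M counts.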

How the results depend on the processing

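No direction of a called gene reversed. The number of the 10 genes called between genotypes in Cb at 2 months was 2 and became 1 with DESeq2, with all 3 tools required, with the replicate block and with only the 6 libraries compared, where Chat was not tested, Slc5a7 being called throughout. In Cb at 3 months it was 2 and became 1 with DESeq2, 0 with limma-voom, with all 3 tools required and with only the 6 libraries compared, and 0 with a minimum of 1 CPM in 3 libraries, under which Dbh and Slc6a2 were not tested. In F/M at 2 months it was 3 and became 1 with only the 6 libraries compared (Slc5a7), and 2 with DESeq2, with limma-voom and with all 3 tools required, where Slc6a4 was lost (adjusted p = 0.102 and 0.211). For the change from 2 to 3 months in F/M it was 0 and became 1 with DESeq2. Without a filter on low counts it became 2 at 1 month in each region, 5 for F/M of 2 months, 1 for F/M and 8 for Cb of 3 months, 2, 7 and 4 for the difference between regions at 1, 2 and 3 months, 2 in F/M and 5 in Cb for the change from 1 to 2 months, 5 in F/M and 4 in Cb for that from 2 to 3 months, and 8 and 9 for the regions at 1 and 2 months. With limma-voom it was 6, 6 and 5 for the regions at 1, 2 and 3 months and 3 for the difference between regions at 2 months. The cause was not tested. The share of all genes called under each setting is not reported here, so a change in these counts cannot be read as particular to the 10 genes.

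Leaving out 1 library gave 1 to 2 calls in Cb at 2 months, 0 to 8 in Cb at 3 months, 0 to 3 in F/M at 2 months, 3 to 5 for the difference between regions at 2 months and 0 to 2 at 3 months (2 without Cb control replicate 3), and 0 to 2 for the change from 2 to 3 months in Cb (2 without Tpp1-/- replicate 2 of 2 months, 1 without control replicate 1 of 2 months or control replicate 3 of 3 months). For the regions it gave 5 to 7, 6 to 7 and 7 to 8 calls at 1, 2 and 3 months. The replicate number also carries sex at 1 and 3 months, so a block on it takes out a difference of sex there. The replicate block gave 3 calls in Cb at 3 months, 4 in F/M at 2 months, 4 for the difference between regions at 2 months (Tph2 lost and Slc6a2 gained) and 2 for the change from 2 to 3 months in Cb, and 6, 7 and 5 for the regions. The replicate block across regions, chosen after seeing the data, gave 8, 7 and 7 for the regions and 4 for the difference at 2 months. The sex term gave 6 calls for the regions at 1 month and left the other counts of calls at 1 and 3 months as they were.

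Counts per library were low for Chat (0 to 35) and Slc6a3 (0 to 10) in Cb and for Slc6a2 in F/M (0 to 23, with 0 in 11 of 18 libraries), which limits the changes that could be detected. The counting interval of a ratio covers counting error only.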
